A study of Cyanidioschyzon merolae strain 10D with 7 samples.

Results

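Short H3K27me3 regions away from the ends of the 10 larger chromosomes of the red alga *Cyanidioschyzon merolae* were described. A region was a maximal stretch covered by peaks in at least 2 of the 3 peak lists called against input. It was kept when it was shorter than 2000 bp, had its midpoint more than 50 kb from both ends of the chromosome span and lay on chromosomes 11 to 20. This gave 471 of the 1337 regions of the genome, 473188 bp of the 2349822 bp that all regions covered. The span of a chromosome is the largest peak end over all lists, a lower bound of its length. The regions were selected on peak coverage against input, so their presence and fold in the lists against input describe the choice and carry no test.

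Trimethylation of lysine 27 on histone H3 (H3K27me3) is placed by Polycomb repressive complex 2 (PRC2), whose catalytic subunit is Enhancer of zeste, E(z). In animals and plants the mark is typical of silent facultative heterochromatin and often spreads over whole genes. In animals, E(z) is active only together with partner subunits, among them ESC and Su(z)12.

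The cells were liquid cultures of strain 10D, grown at 42°C under continuous light, and the labels name no treatment or mutant. Per the labels, chromatin immunoprecipitation with sequencing gave 3 H3K27me3 libraries, set against 3 libraries of total histone H3 and 1 input library. The 6 lists hold broad peaks of each H3K27me3 immunoprecipitation (tags IP6, IP7 and IP8) called against input and against H3. The labels and the study call the 3 immunoprecipitations biological replicates, without saying whether they came from separate cultures. The tags could not be matched to replicate numbers. The 3 lists against input share 1 input library, so their spread holds no variation between inputs. The lists hold 1107 to 1356 peaks each and no read counts, so depth is unknown and precision rests on the spread over 3 lists.

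The regions were weakly enriched patches of about 1 kb, most of them found by every immunoprecipitation. Lengths ran from 42 to 1980 bp with a median of 983 bp, and 34 regions were under 300 bp. A peak was present over 423 of the 471 regions in IP6, 422 in IP7 and 451 in IP8. All 3 lists held 354 regions (75.2%), against 81.6% of all regions of the genome, and the other 117 were held by 2 lists. IP8 was the most complete list, lacking 20 regions that both other lists held, whereas IP6 lacked 48 and IP7 lacked 49. Regions in 3 lists had a median length of 1101 bp and a median fold of 1.73, while those in 2 lists had 617 bp and 1.29.

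Fold enrichment over input, the ratio of the immunoprecipitation to its control averaged over a peak, was low in most regions. Its median was 1.53 in IP6, 1.54 in IP7 and 1.64 in IP8, and its highest values were 6.16, 4.53 and 5.47. Averaged over the lists that held a region, fold ran from 1.02 to 5.22 with a median of 1.58. Of the 471 regions, 132 (28.03%) had a mean fold of 2 or more, against 30.9% of all regions. At least 3-fold enrichment was seen in 31 regions and at least 4-fold in 11. Over the 354 regions in 3 lists the fold of 1 list followed that of another with Pearson's r of 0.736 for IP6 and IP7, 0.763 for IP6 and IP8 and 0.827 for IP7 and IP8. Regions are not independent replicates and the lists share their input, so these values describe the lists only. The SD over the 3 lists was 14.6% of the mean in the median region.

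Total histone H3 as the control shows whether a region carries the mark beyond its share of nucleosomes. The same immunoprecipitations gave peaks against H3 over 332 regions in IP6, 315 in IP7 and 372 in IP8. At least 2 of the H3 lists held 358 regions (76.0%), against 81% of all regions, and 241 regions were in all 3. A total of 212 regions were in all 6 lists, whereas 51 (10.8%) had no peak against H3 in any list, against 8.0% of all regions. Those 51 were short, with a median of 413 bp, and their median fold over input was 1.41. For the 420 regions with a value the median fold against H3 was 1.42. The share in at least 2 H3 lists was 45.3% in regions under 500 bp and 82.4% in those of 500 to 1000 bp. In the longer classes it was 83.2% on both sides of 1500 bp.

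The strongest regions lay between genes, as did 85.35% of all 471 regions, and most of the strongest were on chromosome 15. The 10 with the highest mean fold over input were chosen among regions in all 6 lists, so they had to be called against both controls. The first was on chromosome 15 from 67080 to 67793, between CMO025C and CMO026C, with folds of 5.87, 4.46 and 5.33 over input in IP6, IP7 and IP8 (mean 5.22 ± 0.711, SD, n = 3). Against H3 it had 4.82, 3.53 and 3.75 (4.03 ± 0.687). IP6 was highest and IP7 lowest against both controls.

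Next were 2 patches in 1 gap between CMO039T, a gene of the RNA class misc_RNA, and CMO040C. The patch on chromosome 15 from 99148 to 100278 had 5.999, 4.286 and 5.184 over input (5.16 ± 0.857), and that from 97769 to 98408 had 6.08, 3.70 and 5.18 (4.99 ± 1.21). They were separate peaks in IP6 and IP7 but a single peak of 2528 bp in IP8, so they share their IP8 value and are not independent. On the same chromosome the region from 52449 to 52963, between CMO019C and CMO020C, had 4.42, 4.32 and 5.46 (4.74 ± 0.628). That from 113644 to 115342, between CMO045C and CMO046C, had 5.31, 3.65 and 3.86 (4.27 ± 0.902). IP7 was the lowest list over input in all 5 of these chromosome 15 regions, and also in most of the other regions of the top 10.

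The region on chromosome 20 from 702349 to 702888, between CMT279C and CMT280C, had 4.82, 3.69 and 4.85 over input (4.46 ± 0.661), and lay 702.6 kb from the nearest span end. On chromosome 12 the region from 723664 to 725439, between CML280C and CML282C, had 4.91, 4.10 and 4.17 (4.39 ± 0.451). On chromosome 13 the region from 90601 to 92563, between CMM042C and CMM044C, had 4.78, 3.75 and 3.76 (4.10 ± 0.591). These 3 kept a mean fold against H3 of 3.21, 3.53 and 3.46.

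The remaining 2 of the 10 varied more with the control or the list. On chromosome 15 from 343034 to 344499, between CMO135C and CMO136C, folds of 4.58, 3.72 and 4.73 over input (4.35 ± 0.544) stood beside 1.34, 2.16 and 1.86 against H3 (1.79 ± 0.413). Every list gave this region a lower fold against H3 than over input, as in most of the 10. Its mean fold against H3 was the lowest of the 10. On chromosome 13 from 651882 to 652836, between CMM259C and CMM260C, the folds over input were 2.51, 4.16 and 5.26 (3.98 ± 1.38), the widest spread among the 10.

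**Figure D1:**
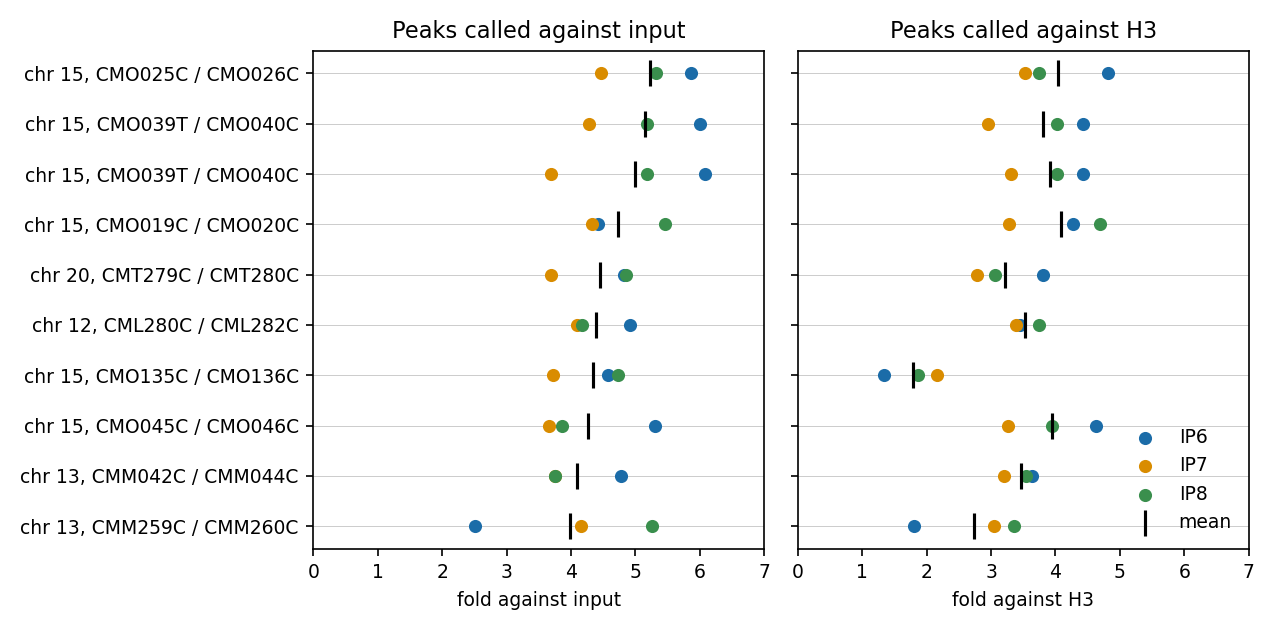
Fold enrichment of the 10 regions with the highest mean fold over input among those in all 6 lists, each labelled by its chromosome and flanking genes, with fold against input on the left and against H3 on the right. Points are the lists IP6, IP7 and IP8 and the bar is their mean. The chromosome 15 region between CMO135C and CMO136C has a mean of 1.79 against H3, and the last region spreads from 2.51 to 5.26 over input.

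Ranked by fold against H3 instead, 4 of the top 5 were the chromosome 15 regions between CMO019C and CMO020C, CMO025C and CMO026C, CMO045C and CMO046C, and CMO039T and CMO040C (the patch from 97769). Their means were 4.08, 4.03, 3.94 and 3.92. The other was on chromosome 16 from 404859 to 405676, between CMP161C and CMP162C, with 4.16, 3.60 and 3.99 against H3 (3.92 ± 0.286) and 4.02, 2.17 and 2.74 over input (2.98 ± 0.949). Over the 212 regions in all 6 lists the mean folds against both controls had a Pearson's r of 0.668, and they share the immunoprecipitated libraries.

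Some strong regions came in clusters along a chromosome, in stretches picked after their values were seen. The first 120 kb of chromosome 15 held 7 of the regions, from 52449 to 115342, all in 3 lists and all between 4.27-fold and 5.22-fold over input. Their median fold against H3 was 3.94, 6 of the 7 were in at least 2 H3 lists and 0 overlapped a gene. Farther along chromosome 15, a stretch from 338996 to 352339 held 3 regions with mean folds of 3.39 to 4.35. All 3 were in at least 2 H3 lists, but their median fold against H3 was only 1.79, and 1 overlapped a gene. On chromosome 20 a stretch from 690363 to 743387, toward the middle of the chromosome, held 8 regions with mean folds of 2.56 to 4.46 (median 3.46). All 8 were in at least 2 H3 lists, with a median fold against H3 of 3.24, and 2 overlapped a gene. Over all 471 regions, 76.0% were in at least 2 H3 lists and 14.65% overlapped a gene.

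On chromosome 13 a stretch from 615775 to 652836 also held 8 regions, with mean folds of 2.46 to 3.98 (median 2.99). Of these, 0 overlapped a gene, against 14.65% of all 471 regions. Here the lists were ordered otherwise. Of the 7 that were in 3 lists, 5 had their lowest fold in IP6 and their highest in IP8, an order seen in 27.4% of all regions in 3 lists. In the stretch near the start of chromosome 15 IP6 was highest in 5 of 7 regions, against 28.2% of all regions in 3 lists.

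**Figure D2:**
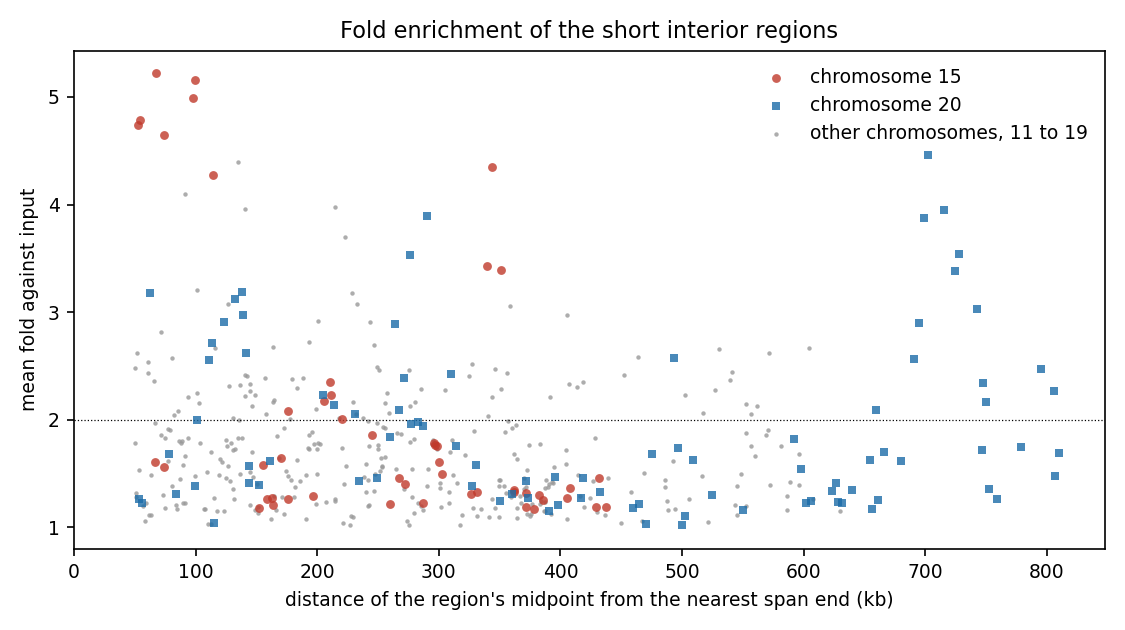
Mean fold over input of the 471 regions by distance of the midpoint from the nearest span end in kb, with chromosomes 15 and 20 marked and the dotted line at 2-fold. The group of chromosome 15 points at 50 to 120 kb reaches 5.22, and the chromosome 20 points near 700 kb reach 4.46, while most regions stay below 2.

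Of the 29 regions in 3 lists with a mean fold of at least 3, 10 each were on chromosomes 15 and 20, 5 on chromosome 13, 3 on chromosome 12 and the last on chromosome 16. In the same order, these chromosomes held 49, 91, 45, 26 and 46 of all 471 regions. A mean fold of at least 2 against H3 was held by 23 of the 29. Among the other 6, named after their values were seen, the region on chromosome 20 from 1330708 to 1332238 had 4.52, 3.14 and 4.02 over input (3.89 ± 0.700). Against H3 it had no peak in IP6 and folds of 1.08 and 1.12 in IP7 and IP8. Further along, the region on chromosome 20 from 1344904 to 1345271 had 4.08, 2.71 and 3.81 over input (3.54 ± 0.727) and no peak against H3 in any list. These patches had high folds over input and low folds or no peak against H3. The folds are ratios to different controls and were not put on a common scale.

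Length ran to both ends of the range allowed. The longest region was on chromosome 17 from 60896 to 62875 (1980 bp), with 1.20, 1.10 and 1.04 over input. Next in length were chromosome 17 from 137312 to 139290 (2.114, 1.497 and 1.868) and chromosome 13 from 815144 to 817118 (1.05, 1.70 and 1.10). The region on chromosome 13 overlapped the misc_RNA gene CMM319T, and the 2 on chromosome 17 overlapped none. The 3 shortest measured 42, 99 and 105 bp, were each in 2 lists and had no peak against H3. The shortest, on chromosome 12 from 500290 to 500331, was the overlap of peaks of 249 bp in IP7 and 465 bp in IP8 with folds of 2.79 and 3.32, so its length says how far 2 peaks met and not how wide either was.

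At the length limit of the rule, the longest region kept (1980 bp, mean fold 1.11) stood beside a first region beyond the length limit on chromosome 11 from 359667 to 361672 (2006 bp, 1.42). The region kept nearest to a span end, on chromosome 19 from 1231694 to 1232811, was 50.3 kb from it with a mean fold of 2.48. The nearest one outside, on chromosome 15 from 852720 to 853605, was at 49.7 kb with 1.70.

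Each of the 10 chromosomes carried the regions, at 32.1 per Mb of interior on chromosome 18 to 61.0 per Mb on chromosome 15. Chromosome 20, the longest, held 91 of them and chromosome 12 held 26. Across the 10 chromosomes, span and density had a Pearson's r of -0.03 and a Spearman's rho of 0.04, given as a description. Neighbouring midpoints were a median of 13108 bp apart, and 177 regions had a neighbour within 5 kb. The largest such group was 5 regions on chromosome 18 from 691026 to 708498, with mean folds of 1.39 to 2.13.

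Fold by distance from the span ends is given as a description. Mean fold was 2 or more in 32.1% of the 56 regions at 50 to 100 kb from a span end, 33.6% of the 110 at 100 to 200 kb, 32.7% of the 98 at 200 to 300 kb and 21.7% of the 207 beyond 300 kb. Of the 7 regions with at least 4-fold enrichment at 50 to 100 kb, 6 were on chromosome 15. Without that chromosome the 4 shares were 25%, 35%, 32.6% and 22.3%, so the nearest class stood close to the farthest.

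To see whether the larger chromosomes differ from the smaller ones, short interior peaks of each list, cut by the same length and distance limits, were compared between chromosomes 11 to 20 and chromosomes 1 to 10. Each list gave 1 value per chromosome set. Lists from 1 genome repeat the library and not the chromosomes, so the tests cover the spread between libraries only. With 3 values in each set, the smallest p of a two-sided exact permutation test is 0.1, and so no comparison could pass 0.05. Adjusted p-values are Benjamini-Hochberg over 8 planned comparisons. These include density, coverage and fold over input, which are given below without a test, so the adjusted values depend on them too.

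Short peaks were less dense on chromosomes 11 to 20 than on chromosomes 1 to 10. The lists held 46.8, 45.5 and 49.9 per Mb on chromosomes 11 to 20 (47.4 ± 2.25, SD, n = 3), against 59.3, 56.5 and 62.2 per Mb on chromosomes 1 to 10 (59.3 ± 2.85). They covered 4.82% ± 0.199 of the interior on chromosomes 11 to 20 and 5.98% ± 0.372 on chromosomes 1 to 10. Median fold over input was 1.51, 1.54 and 1.59 on chromosomes 11 to 20, against 1.64, 1.65 and 1.68 on chromosomes 1 to 10. In these 3 measures each list was lower on chromosomes 11 to 20 and the sets did not overlap. With −log10 q of at least 5 the difference in median fold over input was -0.0364 in place of -0.111, and the sets overlapped. Density, coverage and fold over input come from the contrast that chose the regions and are given without a test. Single chromosomes did overlap, since consensus regions ranged from 32.1 to 61.0 per Mb on chromosomes 11 to 20 and from 32.1 to 91.1 per Mb on chromosomes 1 to 10. Median peak length was 996 ± 15.9 bp on chromosomes 11 to 20 and 983 ± 26.1 bp on chromosomes 1 to 10, within the spread between lists.

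Median fold of the peaks called against H3 was also lower on chromosomes 11 to 20. It was 1.40, 1.37 and 1.45 there (1.41 ± 0.037), against 1.55, 1.51 and 1.60 on chromosomes 1 to 10 (1.55 ± 0.041). The difference was -0.148 with all 3 lists lower (exact permutation p = 0.1, adjusted p = 0.133, and paired by sign flips within lists, exact permutation p = 0.25, the smallest possible). With peaks of at least 2-fold only it was 0.0129, so the direction turned, and with −log10 q of at least 5 it was -0.0712 and the sets overlapped. The share of short peaks against input that met a peak of the same tag against H3 was 72.9%, 66.9% and 78.3% on chromosomes 11 to 20, and 75.3%, 70.4% and 79.0% on chromosomes 1 to 10. The difference of -2.19 percentage points was smaller than the spread between lists (exact permutation p = 0.6, adjusted p = 0.6), although each list was lower on chromosomes 11 to 20 (sign flips within lists, exact permutation p = 0.25, the smallest possible). It was -10.3 points with peaks of at least 2-fold and 1.57 points with peaks under 1000 bp.

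**Figure D3:**
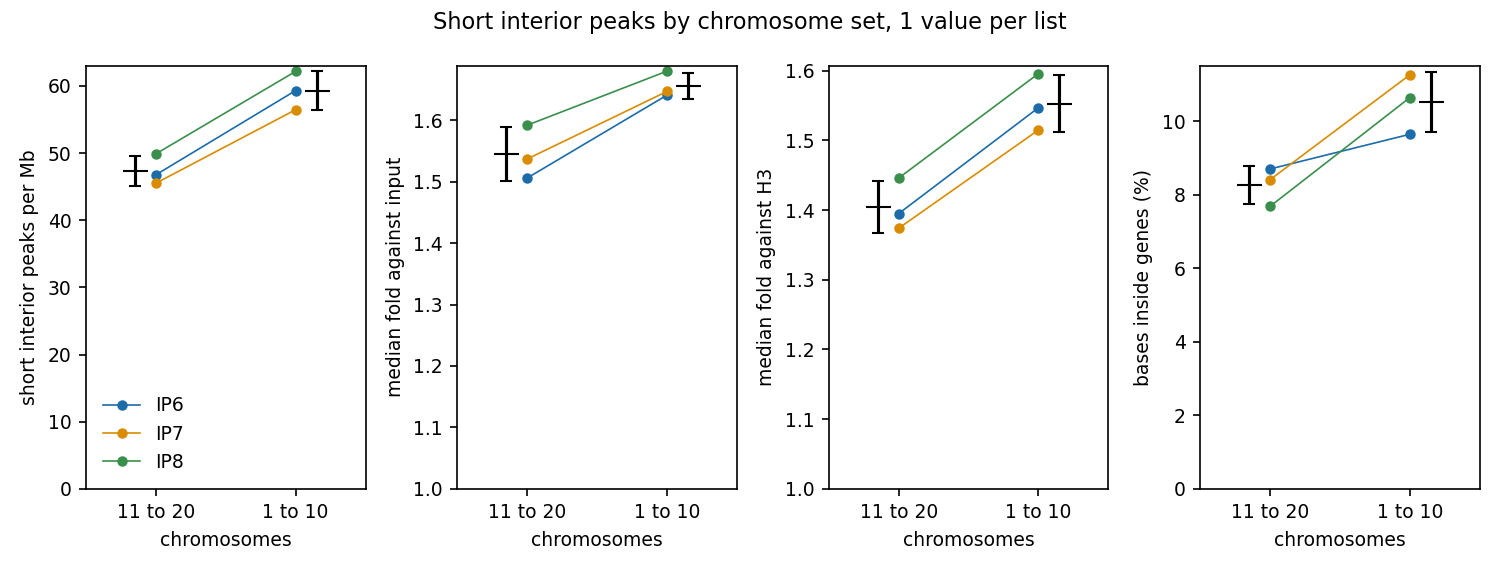
Short interior peaks on chromosomes 11 to 20 and on chromosomes 1 to 10, with density per Mb, median fold against input, median fold against H3 and the percent of bases inside genes. Coloured points joined by lines are the lists, black marks are means with SD (n = 3), and the fold axes start at 1. Each list is lower on chromosomes 11 to 20 in every panel. The share inside genes averages 8.26% on chromosomes 11 to 20 and 10.5% on chromosomes 1 to 10, a difference that depended on the length limit.

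The regions lay almost wholly between genes. Genes came from the RefSeq table of assembly ASM9120v1, whose frame against the authors' coordinates was checked only by overlap. The overlap was lowest at offsets of -300 to 400 bp by chromosome. Taking the lowest overlap as the match assumes that regions lie between genes. Of the 471 regions, 69 (14.7%) overlapped a gene, against 23.9% of all regions. The other 402 (85.3%) overlapped none, and 8.88% of the bases of all 471 regions lay inside genes. Of the 69, 39 had at least 50% of their length in genes and 16 lay wholly within them.

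Position in genes was not used to choose the regions and was tested over the lists. Short interior peaks on chromosomes 11 to 20 had 8.70%, 8.41% and 7.68% of their bases inside genes (8.26% ± 0.524), against 56.0%, 56.0% and 56.4% of the interior bases in no peak (56.1% ± 0.241). The difference was -47.9 percentage points, lower in 3 of 3 lists (exact permutation p = 0.1, adjusted p = 0.133). On chromosomes 1 to 10 the short peaks had 9.64%, 11.3% and 10.6% (10.5% ± 0.817). Chromosomes 11 to 20 were lower in 3 of 3 lists, a difference of -2.25 points (exact permutation p = 0.1, adjusted p = 0.133, and paired by sign flips within lists, exact permutation p = 0.25). That difference depended on the length limit, at -0.385 points and overlapping sets for peaks under 1000 bp and -0.928 points under 3000 bp, and it was -5.03 points with peaks of at least 2-fold. Among consensus regions, 8.88% of bases were in genes here, 10.2% in the 302 short interior regions of chromosomes 1 to 10, 12.4% in the 175 longer interior regions of chromosomes 11 to 20 and 20.9% in the 129 regions within 50 kb of their ends.

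Long gaps between genes held most of the regions. Among 2970 gaps in the interior of chromosomes 11 to 20, 433 (14.6%) touched a region, with a median length of 2641 bp, against 1000 bp for untouched gaps. A region touched 0.427% of gaps under 500 bp, 2.24% of those of 500 to 1000 bp and 9.37% of those of 1000 to 2000 bp. It touched 38.4% of gaps of 2000 to 4000 bp and 37.9% of longer ones. Most of the long gaps therefore held no region under 2000 bp. Longer interior regions were not counted here, although 123 of the 175 overlapped no gene. A gap holding only such a longer region counts as untouched. A longer gap has more bases for a region to touch, and a preference per base was not tested. Of all gap bases, 9.22% lay in regions. Regions took up a median of 37.1% of the gap they touched, and those outside genes were a median of 565 bp from the nearest gene and 1264.5 bp from the one on the other side. Of the 402, 11 lay within 100 bp of a gene. The gene frame was matched only to offsets of -300 to 400 bp by chromosome, so 100 bp is finer than it can resolve.

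Centred on the regions, genes made up 8.45% of bases at the centre, 64.4% at 2 kb and 48.4% at 4 to 5 kb. Short interior regions of chromosomes 1 to 10 had 8.02%, 62.9% and 47.6% at the same distances, and longer interior regions of chromosomes 11 to 20 had 10.9%, 45.7% and 47.2%. The gene-rich flank of the longer regions lay farther out, with highest shares of 63.0% and 70.2% at 2.55 and 2.65 kb on the left and right, against 66.7% and 63.5% at 1.95 and 1.65 kb for the short regions. The gene table gives no strand, so whether the flanking genes start or end at the regions was not analysed here.

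**Figure D4:**
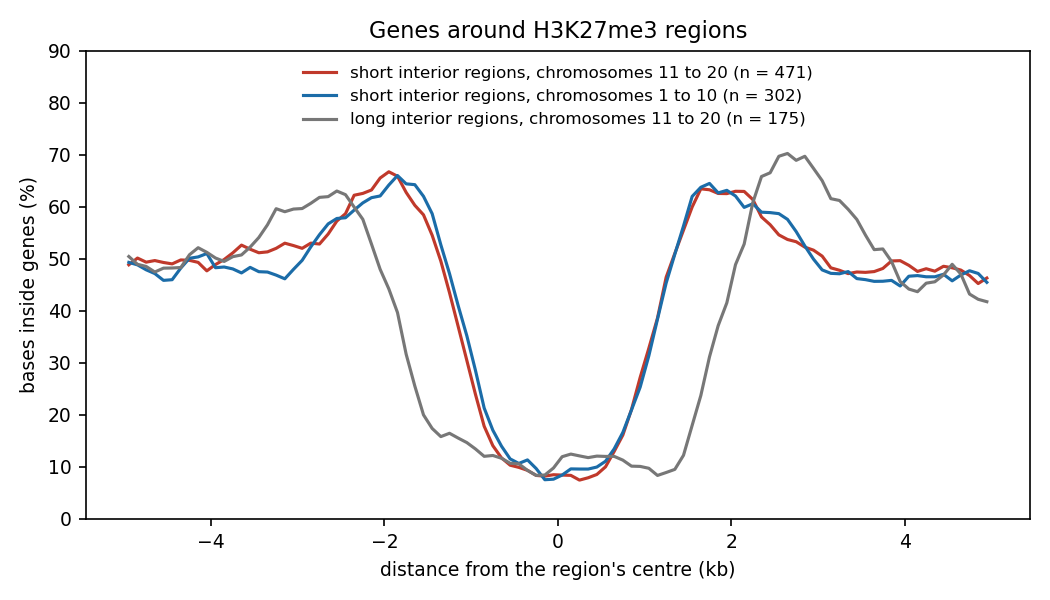
Percent of bases inside genes by distance from the region's centre in kb, for the 471 short interior regions of chromosomes 11 to 20, the 302 of chromosomes 1 to 10 and the 175 longer interior regions of chromosomes 11 to 20. The short regions sit in a trough of 8.45% flanked by gene-rich sequence of 64.4% at 2 kb, nearly the same on the smaller chromosomes, and the trough is wider for longer regions.

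Few genes were covered. Of 3201 genes in the interior of chromosomes 11 to 20, 70 (2.19%) were touched by a region. They were 51 of 2859 protein-coding genes (1.78%), 19 of 312 genes of the class misc_RNA (6.09%), 0 of 18 tRNA genes and 0 of 12 rRNA genes. At least 50% of the length of 29 genes (0.906%) lay in a region, against 3.57% of all genes for regions of any kind, and a region under 2000 bp can reach that share only in genes under 4000 bp. The 29 were 26 protein-coding genes and the misc_RNA genes CMM238T, CMO134T and CMS439T, and their median length was 1095 bp, against 1356 bp for all interior genes.

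The lists differed in which of these genes they covered. At least 50% of the gene was covered in all 3 lists against input for 20 of the 29 and in all 6 lists for 14, where coverage in 2 input lists followed from the choice of regions. In 10 the whole gene lay in a region, namely CMM237C, CMO148C, CMP116C, CMP270C, CMQ132C, CMR094C, CMR401C, CMT320C, CMT411C and CMT594C. Of these, CMM237C, CMP270C, CMQ132C, CMR094C, CMR401C, CMT320C and CMT411C were fully covered in each of the 6 lists, whereas CMO148C lacked a peak in IP7, CMT594C in IP8 and CMP116C in IP6 against input. The regions over the 29 genes had mean folds of 1.02 to 3.43 (median 1.46), and 6 genes had at least 2.

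The highest of these folds was over CMO134T, on chromosome 15 from 338996 to 340647, with 3.48, 3.15 and 3.66 over input (3.43 ± 0.255) and 1.33, 1.28 and 1.33 against H3. CMT539C followed on chromosome 20 from 1357194 to 1358722, with 3.25, 1.69 and 3.73 (2.89 ± 1.06), and its peak against H3 was in IP6 alone. CMM237C and its neighbour CMM238T shared 1 region on chromosome 13 from 590603 to 592257, with 2.24, 2.25 and 2.90 (2.46 ± 0.375). CMR094C had 2.58, 1.83 and 2.33 (2.25 ± 0.380) and CMP270C had 2.359, 2.099 and 1.689 (2.05 ± 0.337). Both were called in all 6 lists.

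Others had higher fold values against H3 than over input. CMN283C had 3.11, 3.14 and 3.12 against H3 (3.13 ± 0.0172), beside 1.49, 1.84 and 1.21 over input (1.51 ± 0.314). CMR401C had 3.21, 2.49 and 3.05 against H3 (2.92 ± 0.376), beside 1.67, 1.80 and 2.14 over input (1.87 ± 0.244). For both genes every value against H3 was above every value over input. Since the controls differ and the folds share no common scale, this compares the values and not amounts of the mark. CMS162C, CMS439T and CMT471C had no peak against H3 in any list.

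**Figure D5:**
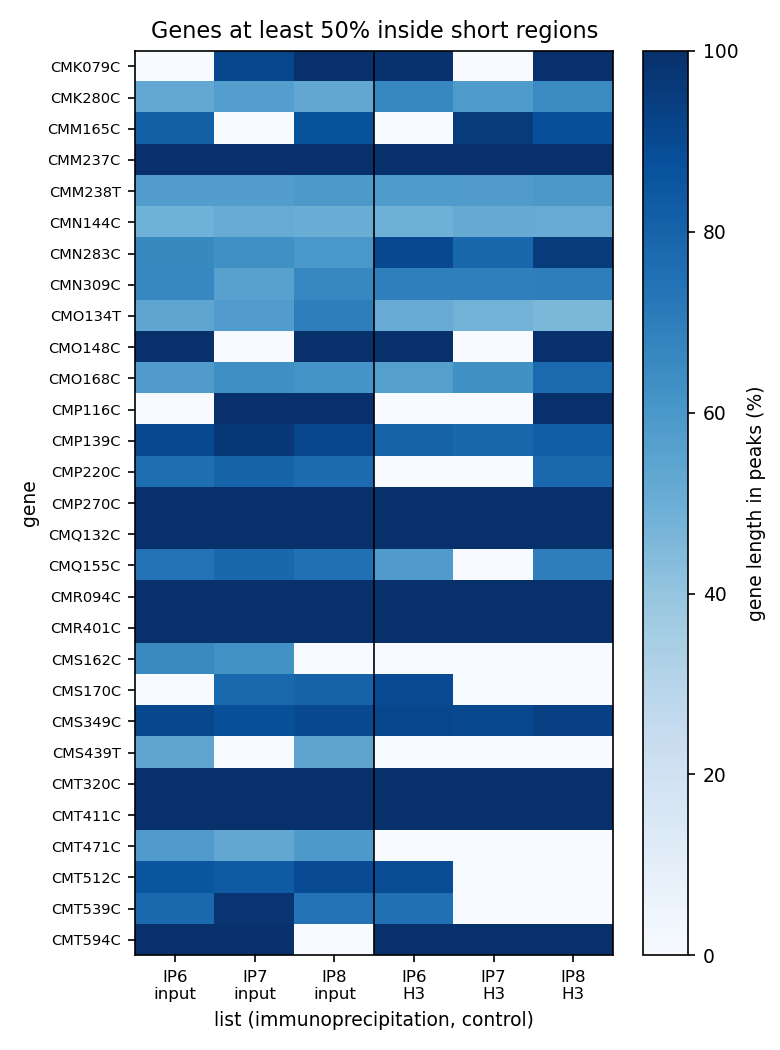
Percent of the length of 29 genes that lay in peaks, from 0 (white) to 100 (dark blue), with 1 row per gene and 1 column per list, the 3 lists against input left of the line and the 3 against H3 right of it. CMM237C, CMP270C, CMQ132C, CMR094C, CMR401C, CMT320C and CMT411C are dark in every column, while CMS162C, CMS439T and CMT471C are white against H3.

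The genes for PRC2 itself lay outside the regions, although 2 of the 3 had one next to them. CMQ156C, the E(z) homolog, was covered at 0%, and its neighbour CMQ155C was covered at 77.4% by a region on chromosome 17 from 376223 to 377399. That region was weak and even, with 1.22, 1.22 and 1.20 over input (1.22 ± 0.0130). CMK173C, the ESC homolog, was also covered at 0% and was next to a region of 318 bp on chromosome 11 from 479901 to 480218, with 1.42, 1.55 and 1.62 (1.53 ± 0.102) and no peak against H3. CML082C, the Su(z)12 homolog, had 12 genes between it and its nearest region. Of all 3201 interior genes, 889 (27.8%) had no other gene between them and a region. Only 2.19% were touched by a region, so lying outside the regions was the usual case.

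Other loci looked up by name did not meet the regions. CMK028C and CMS262C, used as unmarked controls in the study's ChIP-PCR, and the homeodomain gene CMR153C were covered at 0%. Between them and the nearest region lay 3, 7 and 16 genes. Regions touched only 2.19% of all interior genes, so 0% coverage was the usual case. The hedgehog-type genes CMS508C, CMP358C and CMR506C, a list the study chose on these samples, lay within 5 kb of a span end, so the 50 kb limit left them out. They were not free of H3K27me3, with 74.3%, 39.9% and 84.0% of their lengths in consensus regions near the ends.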

How the data were processed

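Paired-end reads were quality-trimmed by the authors and aligned with Bowtie2 2.2.6, with version v3 of the C. merolae Genome Project as reference. MACS2 2.1 then called broad peaks on each immunoprecipitation without clonal reads, and the submitters' notes also name FastQC 0.11.4 and bedtools 2.17. The deposited lists give per peak a fold enrichment (a ratio to the control), −log10 p (not used here) and −log10 q. No column of samples was left unmapped (0). Broad calling joins nearby signal, so a peak's fold is an average over its length.

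Stretches covered in at least 2 of the 3 lists against input were joined with Python 3.11.15, numpy 2.4.6 and scipy 1.17.1. A list's fold in a region is that of the peak overlapping it most, a minimum overlap of 1 bp counts as present, and a region absent from a list has no value there. Coordinates are the authors', counted from 1. The code was tested on simulated data. The frame of the RefSeq table (ASM9120v1, 5373 genes) was checked by moving genes in steps of 100 bp up to 5000 bp. The share of region bases in genes was lowest, 8.83%, at 200 bp (8.88% unmoved) and 55.3% and 54.4% at 3000 bp either way; by chromosome the lowest lay at -300 to 400 bp. None of its coordinates are printed. The regions and gene lists were chosen with earlier results of these data known. Named were the 10 highest folds over input and the 5 highest against H3 among regions in all 6 lists, the 3 longest and 3 shortest, those at the limits, the largest group, genes with at least 50% in regions, and PRC2, ChIP-PCR, homeodomain and hedgehog genes. Since 1 list gives the values of both chromosome sets, sign flips within lists were the paired alternative. Gene orientation, base composition, motifs and sequences were not analysed here.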

Additional observations from a re-analysis of the deposited data

How the results depend on the processing

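The comparisons between chromosome sets and with genes were recomputed under stricter peaks, other length and distance limits, 1 list left out, and, chosen after seeing the data, without chromosome 15 or 20. The reversals were these. The difference in median length, 12.3 bp, became -20.3 bp with peaks of at least 2-fold, -26 bp under 1000 bp and -4.5 bp under 3000 bp, and ran from -5.75 bp (without IP6) to 34.5 bp with 1 list left out. The difference in fold against H3 became 0.0129 with peaks of at least 2-fold, and that in the share meeting a peak against H3, -2.19 points, became 1.57 points under 1000 bp, -4.76 with −log10 q of at least 5 and -10.3 with at least 2-fold peaks. Others kept their direction but not their size or the separation of the sets. With −log10 q of at least 5 the difference in fold over input was -0.0364 (against -0.111) and in fold against H3 -0.0712 (against -0.148), with overlapping sets in both. With at least 2-fold peaks that in fold over input was -0.214, with overlapping sets, and the density difference was -6.63 per Mb (-6.03 under 1000 bp) in place of -11.9. The difference in gene share between chromosome sets, -2.25 points, was -0.385 under 1000 bp, with overlapping sets, -0.928 under 3000 bp and -5.03 with at least 2-fold peaks. The deficit of gene bases against unmarked interior stayed between -48.8 and -45.9 points. Paired by list (replicate block, sign flips), that deficit, -47.9 points, had exact permutation p = 0.25, the smallest possible. With 1 list left out the smallest p is 0.333. None of these designs can pass 0.05, so they say nothing of whether a call is stable.

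Counts followed the strength asked of a peak. With at least 2-fold peaks there were 131 regions, 66 in all 3 lists, 48 in at least 2 H3 lists, 14 overlapping a gene and 6 covered genes; with −log10 q of at least 5 there were 313, 194 and 185 regions and 18 genes. With 1 list left out, 234 to 287 regions were in both other H3 lists, the lowest without IP8. At least 50% overlap left 39 regions in genes. Fewer peaks enter under both stricter settings by construction. Depth is unknown.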

Other observations

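Called the same way from the lists against H3, chromosomes 11 to 20 held 440 short interior regions, 423038 bp in all, with a median length of 937 bp and a median fold of 1.43 against H3. Of these, 12.3% overlapped a gene and 7.35% of their bases were in genes. Regions that only 1 control gave were few. A total of 29 regions (20201 bp) were called against H3 and had no peak over input in any list, with a median length of 537 bp and a median fold of 1.33. In the other direction 51 regions (33596 bp) were called over input alone, with a median length of 413 bp and a median fold of 1.41. Genes were overlapped by 2 of the 29 (6.9%) and 6 of the 51 (11.8%), against 12.3% of the 440 and 14.65% of the 471. The strongest region called against H3 alone was on chromosome 13 from 53691 to 54003, with folds of 1.89 in IP6 and 2.93 in IP8 and no peak in IP7.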
